A study of Cristatella mucedo with 12 samples.

Results

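The longest gene models of the freshwater bryozoan Cristatella mucedo were followed over statoblast stages and colony zones. A gene model is a stretch of the assembly, from a first to a last base, to which reads were assigned. Its span holds introns as well as exons. Models were taken when they spanned at least 150000 bases and held 10 or more counts over the 12 libraries, with contigs 18, 32, 37, 68 and 159 left out. This gave 15 of the 35949 models listed. No model of that length failed the count limit or lay on a contig left out, so the 15 are all the models of this length in the table.

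Statoblasts are the dormant, capsule-enclosed buds by which freshwater bryozoans survive the cold and found colonies anew. All libraries were bulk poly-A RNA of wildtype animals of isolate SBPEP1. Mature colonies, kept in an aquarium after collection from a stream, were cut in either of 2 ways. The first gave a central zone (replicates 1 and 2) and an edge zone (replicates 2 and 3). The second, made on elongated colonies, gave a middle part (replicates 2 and 3) and an end part (replicates 1 and 3). The other 4 libraries were of statoblasts, 1 straight from frozen storage (freezer) and 1 each at day 2, day 4 and day 6 of differentiation at room temperature. No stage was replicated here. The labels do not say how many colonies or statoblasts were pooled, or whether replicates were separate colonies, so a p-value here reflects no more than how these libraries vary. In bulk RNA, fewer cells of a type and less RNA per cell cannot be told apart. Library totals were 14787598 to 26089274 counts in mature colonies and 4738221 to 7805888 in the statoblast series.

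In animals, a long gene is mostly intron, and RNA polymerase has to copy all of it to complete a transcript, while introns are largely spliced out as it goes. Genes of extreme length in well-annotated animals such as humans and mice include many that encode large muscle, adhesion and synaptic proteins. Whether any of the 15 models encodes such a protein is not given here. The files pair no nuclear identifier with a gene name, and the tissue could not be checked against marker genes. A model is therefore called by its contig and span, and identifiers are printed for a few. Exon lengths were not used here, so levels are compared between libraries for one model and not between models.

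The 15 models spanned 153.2 to 218.3 kb, against a median of 3257 bases over all models. They lay on 9 contigs. Contig 31 carried 5 of them and contig 1 carried 3, while contigs 2, 3, 5, 8, 24, 29 and 161 had 1 each. Contig 31 makes up 0.806% of the bases of all contigs in the table and contig 1 makes up 4.39%. No other model lay inside any of the 15. Overlap with another model was found for 2 of 15, both at one end only. The 198.7 kb model on contig 29 shared 295 bases with a model that held 1 count in all. The 153.2 kb model on contig 1 shared 254 bases with a model of 29005 bases. Among all models 21.6% overlapped another. Counts with a fraction, which arise where reads are shared, occurred in all 15 models in at least 1 library.

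The length limit fell between close neighbours in span. Just inside were the 156.7 and 153.2 kb models on contigs 2 and 1. Just outside was a model of 149099 bases on contig 1, with 38.3 to 311.2 CPM (counts scaled to the library total) in mature libraries and 0, 0, 0 and 0.384 CPM over the stages. Next came a model of 146565 bases on contig 27, with 14.6 to 111.0 CPM in mature libraries and 9.10, 10.8, 9.21 and 21.4 CPM over the stages.

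**Figure D1:**
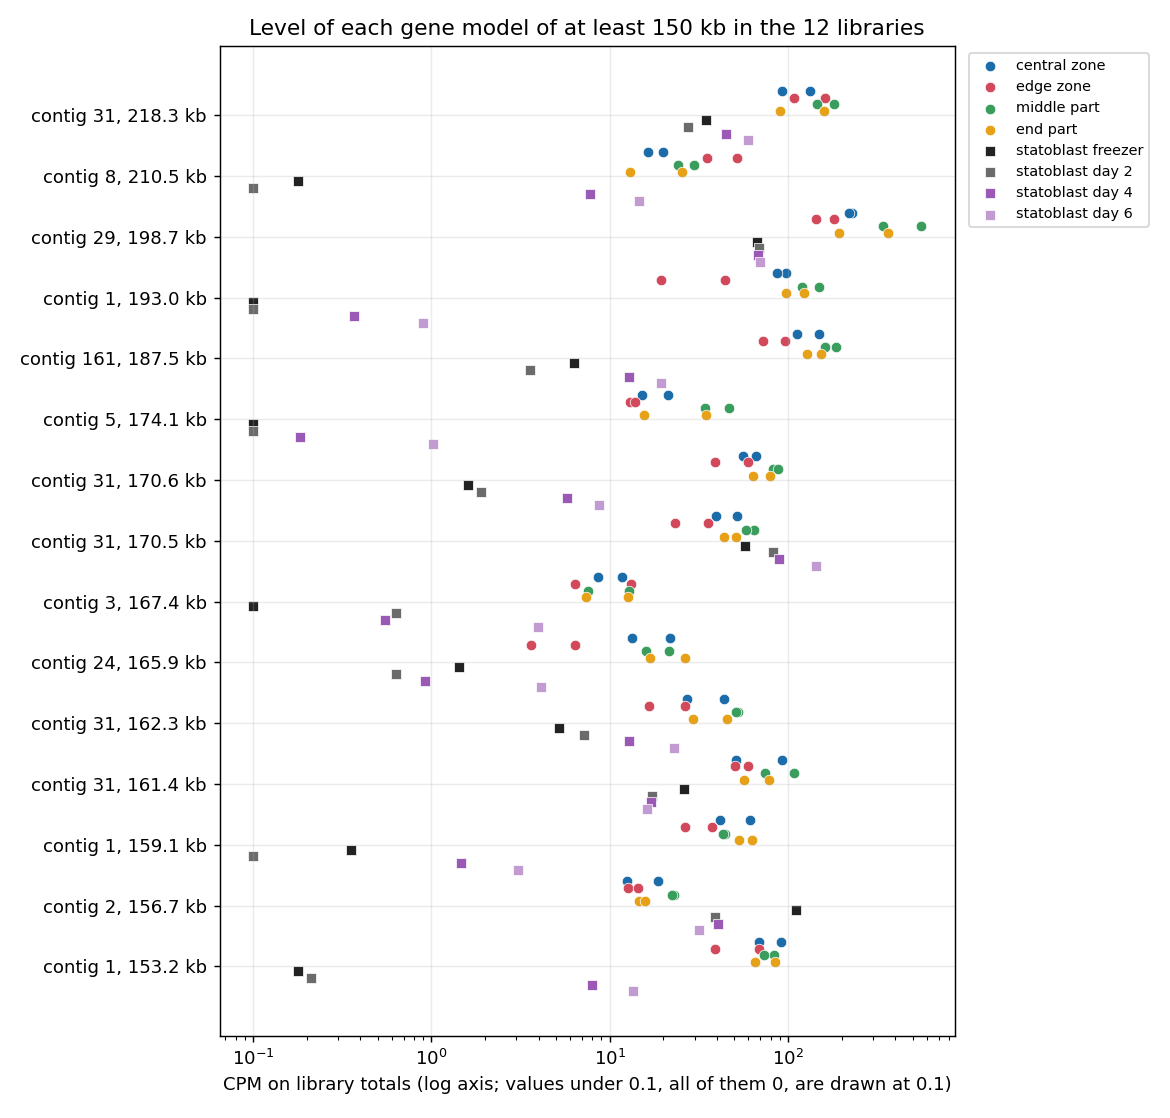
CPM on library totals (log axis) of the 15 models of at least 150 kb, 1 row a model, ordered by span. Circles are the 8 mature libraries and squares the 4 statoblast stages; for 10 of the 15 models every square lies left of every circle.

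The comparison of the statoblast series with mature colonies asked how much RNA of these models was present before and during differentiation. RNA levels do not show when that RNA was made. Most were lower in statoblasts: 13 of 15 passed the test as lower, 1 as higher and 1 did not pass (quasi-likelihood test of edgeR over 17896 models, with Benjamini-Hochberg adjustment and a threshold of 0.05). Over all models tested, 48.2% were called lower and 28.7% higher. The median log2 fold change was -3.33 over the 15, against -0.62 over all models. For 10 of the 15 all stages lay below all mature libraries, and for 1 all stages lay above. Over all models tested these shares were 33.5% and 31.5%. With TMM scaling, which corrects totals for composition and which the tests use, the counts were 13 and 1, against 41% and 22.4%. Overlap of single models is given below on library totals unless TMM is named.

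Shorter models did not show the same balance, as a description without a test. Of 984 models of 50000 to under 150000 bases, 419 were called lower and 354 higher, and their median was -0.25 on the log2 scale. Within that class, the 68 models of 100000 to under 150000 bases had 39 lower and 15 higher calls and a median of -1.47. The 7915 models of 10000 to under 50000 bases had a median of -0.15, and the classes of 2000 to under 10000 and under 2000 bases had medians of -1.31 and -1.54. The order was thus not one of length alone, since the shortest and the longest classes had the lowest medians.

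**Figure D2:**
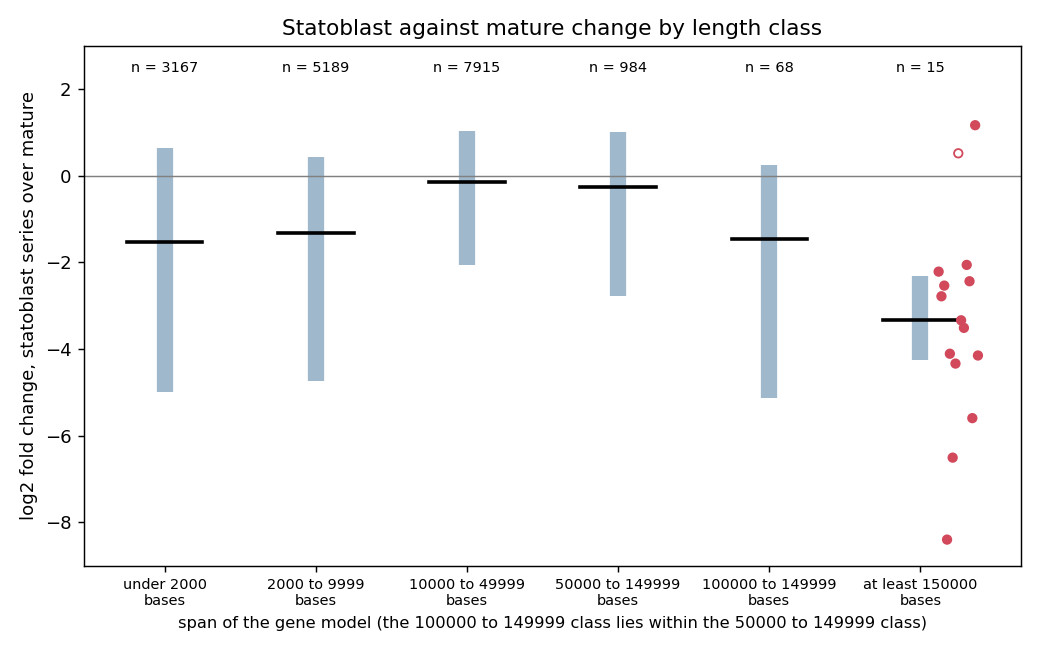
Log2 fold change of the statoblast series over mature colonies by span of the gene model. Black lines are medians, blue bars run from the lower to the upper quartile, and red points are the 15 long models (the open point was not called); the median of the long models, -3.33, is the lowest of the classes.

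Library properties moved with this comparison. The statoblast libraries were shallower. Counts with a fraction other than 0.5 made up 6.29% to 7.72% of models with a count there and 26.6% to 32.2% in mature libraries. Of the 15 models, 0 to 2 had a fraction in a statoblast library and 9 to 12 in a mature library. With all libraries thinned to the smallest total the calls were again 13 lower and 1 higher. The part of read sharing in the result was not tested. Per the labels, some libraries were paired-end and others single-end, but not which, so run type and stage cannot be told apart.

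Together the 15 models took 0.0610% to 0.156% of counts in mature libraries and 0.0248% to 0.0412% in the statoblast series. The models on contig 31 (170.5 kb) and contig 2 (156.7 kb), which had a higher mean in statoblasts, supplied 169.0, 120.9, 129.1 and 174.4 CPM of this sum from freezer to day 6. The remaining 13 supplied 143.0, 127.3, 180.5 and 238.1 CPM in the same order, against 573.6 to 1480 CPM in mature libraries.

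The number of models with 10 counts or more was 7 of 15 in the freezer and day 2 libraries, 10 at day 4 and 13 at day 6. The day 6 library was the deepest of the 4. With at least 1 count there were 12, 11, 15 and 15, so the stage at which a model passed 10 counts is a point on a depth-limited scale and not its first appearance. The share with 10 counts or more went from 46.7% in the freezer library to 86.7% at day 6. Shorter models with a mature median of at least 1 CPM were also detected more often at day 6. Those of 50000 to under 150000 bases went from 74.1% to 85.5%, and those of 10000 to under 50000 from 76.1% to 85.8%. Those of 2000 to under 10000 bases went from 52.9% to 65.3%, and those of under 2000 from 39.7% to 51.7%. Relative to each model's median in mature colonies, the median level of the 15 was 4.59% in the freezer library, 3.86% at day 2, 11.2% at day 4 and 24.97% at day 6. Models of 50000 to under 150000 bases with a mature median of at least 1 CPM stood at 114.1%, 99.6%, 127.1% and 137.1%. Those of 100000 to under 150000 bases stood at 44.6%, 28.3%, 49.2% and 72.0%. Those of 10000 to under 50000 bases stood at 117.5%, 118.4%, 137.4% and 140.4%. The shorter classes were also below 100% and higher at day 6 than in the freezer library. Models of 2000 to under 10000 bases were at 31.1%, 38.7%, 57.8% and 59.7%, and those of under 2000 bases at 13.3%, 17.1%, 34.3% and 34.8%.

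**Figure D3:**
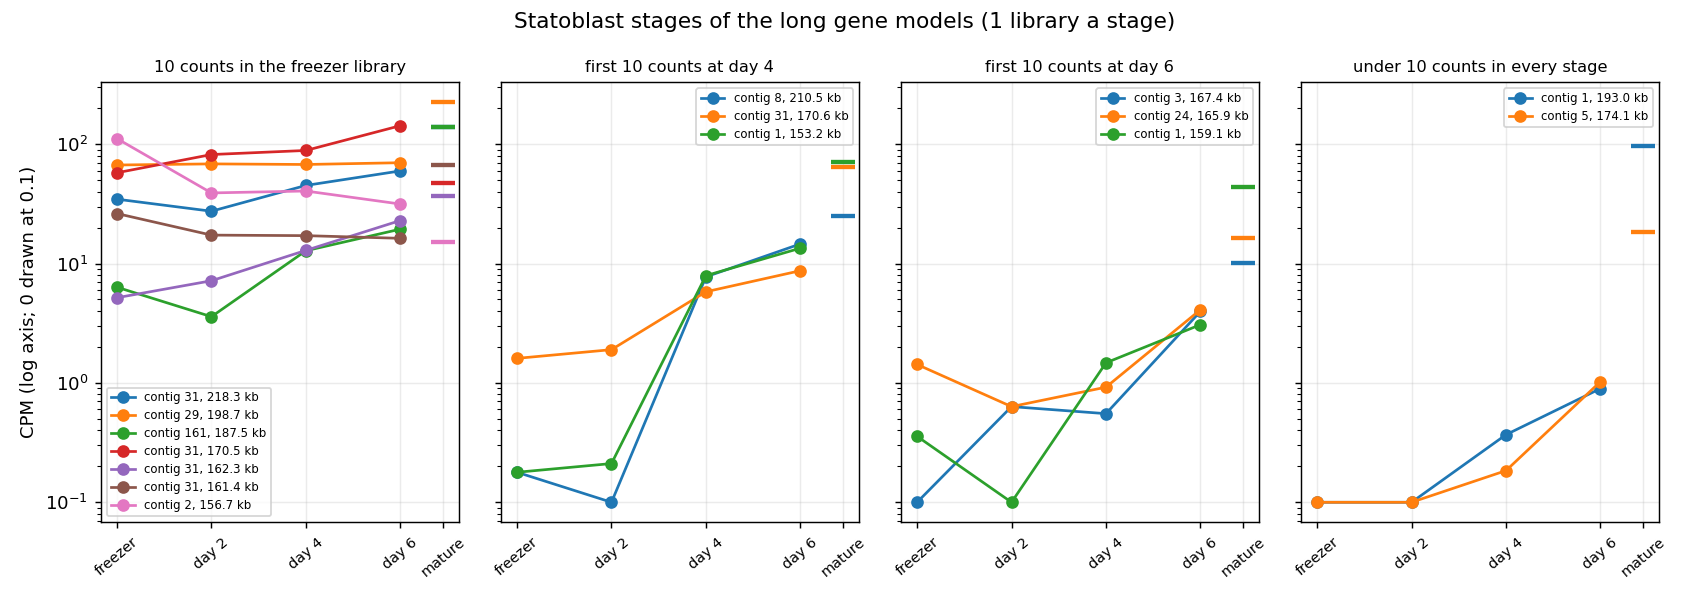
CPM (log axis) of the 15 models over the 4 statoblast stages, 1 library a stage, in panels by the first stage with 10 counts. Each short bar at the right is the same model's median over the 8 mature libraries; at day 6, 2 models lie above their bar and 13 below.

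The model on contig 2 (g16120, bases 6729273 to 6885951) was the one called higher in the statoblast series. It held 111.3 CPM in the freezer library, 39.04 at day 2, 40.5 at day 4 and 31.5 at day 6. In mature libraries it ran from 12.6 through a median of 15.2 to 23.0 CPM. All stages lay above all mature libraries, and the freezer library stood far above the later stages. The log2 fold change was 1.17 (SE 0.28; adjusted p = 0.00165 in edgeR). With day 6 alone against mature colonies it was 0.37 (edgeR adjusted p = 0.34) and was not called. Without the freezer library it was 0.59 (edgeR adjusted p = 0.0158). From freezer to day 2 its level fell to a ratio of 0.351, with a 95% counting interval of 0.296 to 0.414. Intervals here cover counting error only and say nothing of the spread between animals.

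The 170.5 kb model on contig 31 (g31945, bases 2498687 to 2669204) rose over the stages and had the highest level of its 12 libraries at day 6. Its levels were 57.6, 81.9, 88.6 and 142.8 CPM from freezer to day 6. In mature libraries it ran from 23.4 through a median of 47.2 to 64.4 CPM. The freezer library lay within the mature range and the later stages above it. Against mature colonies the log2 fold change was 0.52 (SE 0.25; adjusted p = 0.0735 in edgeR) and was not called. It was called with library totals alone, at 1.02 (edgeR adjusted p = 0.00338), without the freezer library, at 0.67 (0.025), with day 6 alone, at 1.12 (0.0102), and with 8 group means, at 0.44 (0.0153). These and the other of 18 settings gave adjusted p of 0.00338 to 0.586.

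A further 5 models had 10 counts or more in every stage and yet were lower than in mature colonies. On contig 29 the 198.7 kb model (bases 1043921 to 1242666) barely moved, at 66.9, 68.4, 67.6 and 69.9 CPM. Its mature libraries ran from 143.9 through a median of 224.2 to 559.6 CPM, with no overlap. Its log2 fold change was -2.53 (SE 0.33; adjusted p = 7.93e-06 in edgeR), and its day 6 level was 1.05 times the freezer level (counting interval 0.915 to 1.20).

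The longest model of all, at 218.3 kb on contig 31 (bases 2067212 to 2285493), had 34.6, 27.4, 45.1 and 59.7 CPM over the stages. Its mature libraries ran from 90.7 through 139.2 to 180.4 CPM. The log2 fold change was -2.21 (SE 0.31; adjusted p = 1.71e-05 in edgeR). Every stage lay below every mature library, and day 6 reached 42.9% of the mature median.

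The 161.4 kb model on the same contig (bases 3770314 to 3931739) went the other way over the stages, at 26.2, 17.3, 17.1 and 16.3 CPM. Mature libraries ran from 50.7 through 67.0 to 108.3 CPM. Its log2 fold change against mature colonies was -2.43 (SE 0.25; adjusted p = 7.51e-07 in edgeR). Its neighbour of 162.3 kb (g32021, bases 3585217 to 3747500) climbed at each step, at 5.17, 7.18, 12.9 and 22.9 CPM, against 16.6 through 36.4 to 52.5 CPM in mature libraries. The day 6 library lay within the mature range on library totals and below it with TMM scaling. The log2 fold change was -2.06 (SE 0.40, adjusted p = 0.000303 in edgeR). With day 6 alone against mature colonies the adjusted p was 0.0506.

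On contig 161 the 187.5 kb model (bases 39119 to 226635) stood at 6.33, 3.59, 12.8 and 19.4 CPM over the stages. Mature libraries ran from 72.6 through 138.0 to 185.5 CPM, with no overlap. The log2 fold change was -4.11 (SE 0.45; adjusted p = 1.55e-06 in edgeR).

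For 3 models the day 4 library was the first with 10 counts, although one of them, the 170.6 kb model on contig 31, had 9 counts in each of the earlier libraries. On contig 8 the 210.5 kb model (g5308, bases 6439908 to 6650403) had 1 count in the freezer library, 0 at day 2, 42 at day 4 and 114 at day 6. The last 2 correspond to 7.74 and 14.6 CPM, and the counting interval of the 0 at day 2 reaches up to 0.779 CPM. Mature libraries ran from 13.1 through 24.8 to 52.0 CPM, so that on library totals day 6 lay within their range. With TMM scaling every stage of this model lay below every mature library. Its log2 fold change was -2.78 (SE 0.86; adjusted p = 0.00912 in edgeR), and -1.52 with day 6 alone (edgeR adjusted p = 0.141).

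The 153.2 kb model on contig 1 (bases 24600454 to 24753689) had 1, 1, 43 and 105 counts, or 0.178, 0.211, 7.92 and 13.5 CPM. Its mature libraries were at 38.9 through 70.8 to 91.9 CPM. The 170.6 kb model on contig 31 (bases 2307078 to 2477682) had 1.61, 1.90, 5.80 and 8.71 CPM, against 38.9 through 64.7 to 87.5 CPM in mature libraries. Both were called lower, by log2 fold changes of -4.15 (SE 0.79; adjusted p = 0.000264 in edgeR) and -4.33 (SE 0.46; adjusted p = 1.08e-06 in edgeR). For both, every stage lay below every mature library.

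For 3 models 10 counts were reached at day 6, and one of them, on contig 24, had 8 counts in the freezer library. They were the 167.4 kb model on contig 3 (bases 2526518 to 2693917), the 165.9 kb model on contig 24 (g10755, bases 1396441 to 1562389) and the 159.1 kb model on contig 1 (bases 7798618 to 7957695). At day 6 they had 3.97, 4.10 and 3.07 CPM, which was 39.01%, 24.97% and 7.04% of their mature medians. Before day 6 none of them exceeded 1.47 CPM or 8 counts. Their log2 fold changes were -3.33, -3.51 and -5.59, and all 3 were called lower (edgeR adjusted p = 0.000254, 5.56e-05 and 1.06e-06). The contig 24 model overlapped with mature colonies on library totals, since its edge library of replicate 2 was at 3.64 CPM, and did not with TMM scaling.

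The 2 largest falls were those of models that stayed under 10 counts in every stage. The 193.0 kb model on contig 1 (g17611, bases 4532966 to 4726002) had 0, 0, 2 and 7 counts from freezer to day 6. The counting intervals of the zeros reach up to 0.658 CPM in the freezer library and 0.779 CPM at day 2. Day 6 was at 0.897 CPM (counting interval 0.361 to 1.85). In mature libraries it ran from 19.4 through 97.4 to 149.3 CPM. Its log2 fold change was -8.40 (SE 0.76; adjusted p = 2.81e-07 in edgeR).

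The 174.1 kb model on contig 5 (g19361, bases 8414689 to 8588741) had 0, 0, 1 and 8 counts, with 1.02 CPM at day 6 (counting interval 0.442 to 2.02). In mature libraries it ran from 13.02 through 18.4 to 46.4 CPM. Its log2 fold change was -6.51 (SE 0.68; adjusted p = 1.09e-06 in edgeR). Sizes this close to 0 counts depended on the day 6 library. Without it the log2 fold changes were -9.94 for g17611, -8.94 for g19361 and -5.29 for the contig 3 model. Those of the contig 8 model (-3.96), the 153.2 kb (-5.22) and 159.1 kb (-6.75) models on contig 1, g10755 (-4.51), and the 170.6 kb (-4.97) and 162.3 kb (-2.67) models on contig 31 were also over 1.5 times larger in fold than with all libraries. At day 6 the contig 1 model was at 0.921% and the contig 5 model at 5.57% of the mature median.

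Change within the statoblast series was tested as a slope per day over the 4 libraries, with the freezer library coded as day 0. Only 7 of the 15 models passed the filter of this fit, which asks for enough counts in all 4 stages and so removed the models that were near 0 early. Of the 7, 2 rose and 1 fell (edgeR adjusted p under 0.05, 9887 models tested, of which 5.94% were called higher and 4.17% lower). The 162.3 kb model g32021 rose by 0.37 per day on the log2 scale (SE 0.07; adjusted p = 0.0145 in edgeR) and the 170.5 kb model g31945 by 0.20 (SE 0.05; adjusted p = 0.0297 in edgeR). Both rose at each step, as did 11.1% of all models tested. The contig 2 model g16120 fell by 0.28 per day (SE 0.06; adjusted p = 0.0291 in edgeR). Without the freezer library its slope was -0.08 (edgeR adjusted p = 0.628) and none of the 3 was called. Without day 6 the slopes of g32021 and g31945 were not called either (edgeR adjusted p = 0.19 and 0.376).

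Without the filter on low counts all 15 could be tested, and 5 were called higher and 1 lower. Over all 21059 models tested in that fit, 998 were called higher and 293 lower. The 1 lower was g16120 (slope -0.29, edgeR adjusted p = 0.0327). The 5 higher were the models on contig 8 (210.5 kb, slope 1.15), contig 1 (153.2 kb, 1.08), contig 3 (167.4 kb, 0.87) and contig 31 (170.6 kb, 0.44, and 162.3 kb, 0.36). Their edgeR adjusted p values were 0.0166, 0.0119, 0.0437, 0.041 and 0.0202. In that fit the slope of g31945 was 0.20 with an adjusted p of 0.0523. In all, 13 of 15 had a positive slope there, against a median slope of 0.07 over all models. Between single stages, the counting interval of the ratio lay above 1 for 8 of the 15 models from day 4 to day 6 and below 1 for 1. These ratios are on library totals, day 6 was the deepest stage library, and the share over all models was not computed.

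The comparison of edge with central zone asked whether these models differed across the colony. Of the 15, 1 was called higher and 2 lower at the edge, close to the 12.8% and 10.9% of the 18085 models tested (edgeR, adjusted p under 0.05). Over the 15 the median log2 fold change was -0.07, and over all models it was -0.01. With library totals alone these medians were -0.46 and -0.42, and the calls stayed 1 and 2. In CPM, both edge libraries lay below both central libraries for 9 of 15 models and above them for 1. Over all models tested these shares were 48.2% and 19.2%. With TMM scaling the counts were 3 below and 3 above, against 32.1% and 33.2%, so this count depended on the scaling.

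Higher at the edge was the contig 8 model g5308. It had 35.2 and 52.0 CPM in edge replicates 2 and 3 and 16.5 and 19.8 CPM in central replicates 1 and 2. The groups did not overlap, and the log2 fold change was 1.64 (SE 0.32; adjusted p = 0.00379 in edgeR). It was called in all 13 other settings, with adjusted p up to 0.0422. The edge libraries also held the highest levels of this model among all 12.

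Lower at the edge were g10755 on contig 24 and g17611 on contig 1. The first had 3.64 and 6.40 CPM at the edge and 21.9 and 13.3 CPM in the centre, a log2 fold change of -1.40 (SE 0.33; adjusted p = 0.00942 in edgeR). The second had 19.4 and 44.1 CPM at the edge and 97.4 and 86.6 CPM in the centre, a log2 fold change of -1.16 (SE 0.31; adjusted p = 0.0168 in edgeR). Neither overlapped between the zones. Without central replicate 1 the log2 fold changes were -1.14 for g10755 and -1.20 for g17611, with edgeR adjusted p of 0.0758 and 0.053. Without edge replicate 2 they were -1.10 and -0.73, with edgeR adjusted p of 0.134 and 0.207. For the other 12 models the log2 fold changes ran from -0.31 to 0.66, with SE of 0.24 to 0.37.

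**Figure D4:**
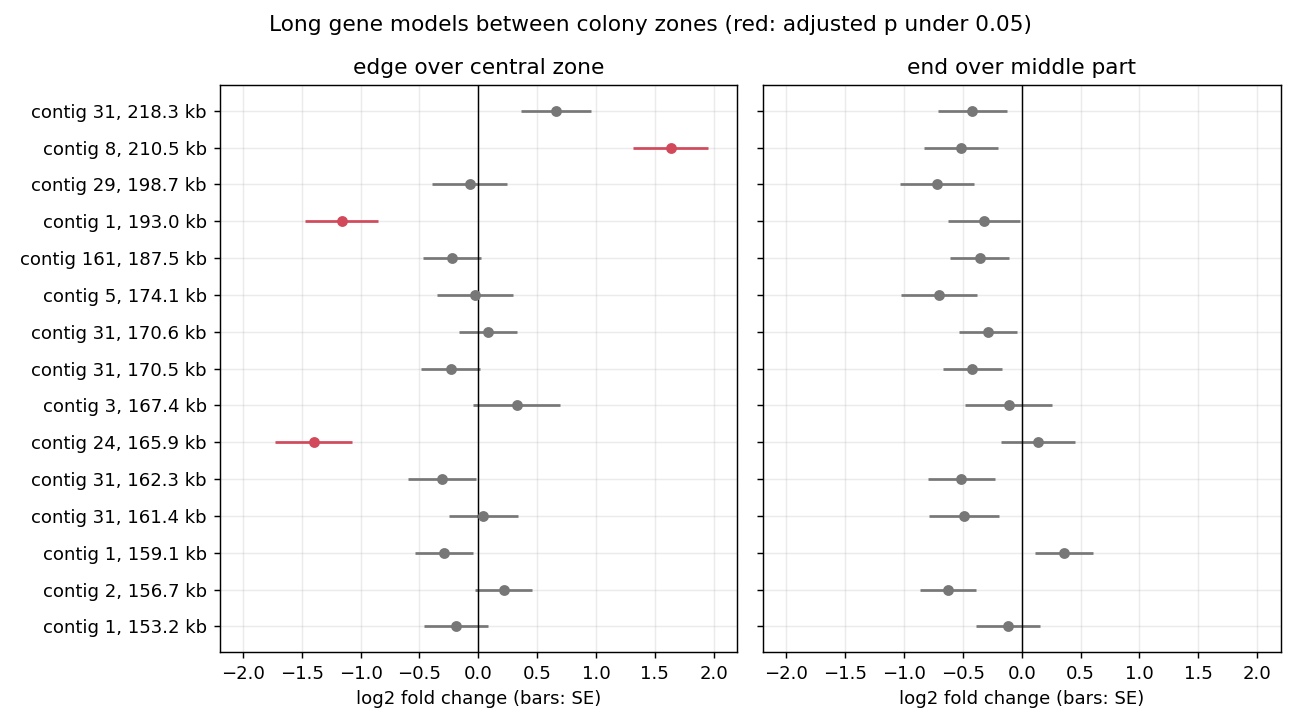
Log2 fold change with its SE for each of the 15 models, edge over central zone on the left and end over middle part on the right. Red points passed the test: 1 higher and 2 lower at the edge, 0 at the ends; 13 of 15 points on the right lie below 0.

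In elongated colonies the ends were compared with the middle, and none of the 15 was called in edgeR or by the DESeq2 Wald test. Of 18085 models tested, 0.326% were called higher and 0.0166% lower. At an unadjusted p under 0.05 there were 3 of the 15 in edgeR and 3 in DESeq2, against 2341 of the 18085 models in edgeR. The log2 fold change was negative for 13 of 15, with a median of -0.42 against 0.01 over all models, and ran from -0.72 to 0.36. The SE of single models was 0.24 to 0.37. The most negative was the 198.7 kb model on contig 29, with 192.0 and 362.7 CPM in end replicates 1 and 3 and 339.2 and 559.6 CPM in middle replicates 2 and 3. These overlapped, and with TMM scaling they did not, at 170.7 and 328.5 against 329.4 and 493.04 CPM (edgeR adjusted p = 0.359). The contig 5 model of 174.1 kb had 15.6 and 34.9 CPM at the ends against 34.3 and 46.4 CPM in the middle, which overlapped, and 13.8 and 31.6 against 33.3 and 40.9 CPM with TMM scaling, which did not (edgeR adjusted p = 0.376). Both changes depended on which end library was left out. Without end replicate 3 the log2 fold changes of the contig 29 and contig 5 models were -1.26 and -1.42. Without end replicate 1 they were -0.32 and -0.23. Both end libraries lay below both middle libraries in CPM for 5 of 15 models and above them for 1, against 18.7% and 26.3% of all models. With TMM scaling the counts were 9 and 1, against 21.8% and 24% of all models.

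By mean CPM on library totals the middle part was the highest of the 4 zones for 11 of 15 models and the edge zone the lowest for 13. Over all models tested these shares were 34.9% and 59.3%. With TMM scaling the counts were 9 and 9, against 28.3% and 38.8%. The central zone was the lowest for 2 models with either scaling. One was the 218.3 kb model on contig 31 both times, and the other was the contig 8 model with library totals and the 170.6 kb model on contig 31 with TMM.

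The difference between the dissections, the edge-to-centre minus the end-to-middle change, passed for 1 of the 15 as higher and 0 as lower (edgeR adjusted p under 0.05), where 0.464% and 1.71% of 18085 models did. It was g5308 on contig 8, with a difference of 2.16 on the log2 scale (SE 0.45; adjusted p = 0.0278 in edgeR). Its middle replicates 2 and 3 stood at 24.2 and 29.8 CPM and its end replicates 1 and 3 at 13.1 and 25.4 CPM. With TMM scaling the end libraries, at 11.6 and 23.0 CPM, lay below the middle ones, at 23.5 and 26.3 CPM. The call was lost without central replicate 1, edge replicate 2 or 3, middle replicate 2 or 3, or end replicate 1, with adjusted p of 0.053 to 0.108. For g10755 the difference was -1.54 (SE 0.46; adjusted p = 0.0763 in edgeR). It was called lower by the DESeq2 Wald test (adjusted p = 0.0262), with library totals alone (0.0333) and without the filter (0.00878), and also without central replicate 2 (0.0463) or end replicate 3 (0.015). It was not called in the other 7 of 12 settings. The fits without central replicate 1, edge replicate 2, middle replicate 3 or end replicate 1 gave -1.19 to -1.29 with edgeR adjusted p of 0.236 to 0.313. With the replicate number as a block it was -0.93 (edgeR adjusted p = 0.394).

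The 5 models of contig 31 stood in 2 tight groups. The 218.3, 170.6 and 170.5 kb models followed each other with gaps of 21584 and 21004 bases, each gap holding 1 short model. The 162.3 and 161.4 kb models were 22813 bases apart with no model between them. Between the 2 groups lay 916012 bases with 75 models. The 5 were the only models of 100000 bases or more on this contig, out of 270.

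In the first group all 3 members were higher at day 6 than in the freezer library. The ratios were 1.72 (counting interval 1.46 to 2.05) for the 218.3 kb model, 5.43 (2.70 to 12.4) for the 170.6 kb model and 2.48 (2.19 to 2.81) for the 170.5 kb model. In the second group the courses were opposite, with a ratio of 4.43 (2.98 to 6.81) for the 162.3 kb model and 0.62 (0.485 to 0.792) for the 161.4 kb model. Against mature colonies 4 of the 5 were called lower and 1 was not called. The other 130 models tested on contig 31 had 45 lower and 51 higher calls and a median log2 fold change of 0.24. None of the 5 was called in either zone comparison or in the difference between dissections, in edgeR or DESeq2 with all libraries. The difference of the 218.3 kb model was 1.08 on the log2 scale with all libraries. It was 1.56 without end replicate 3 and 0.72 without end replicate 1.

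**Figure D5:**
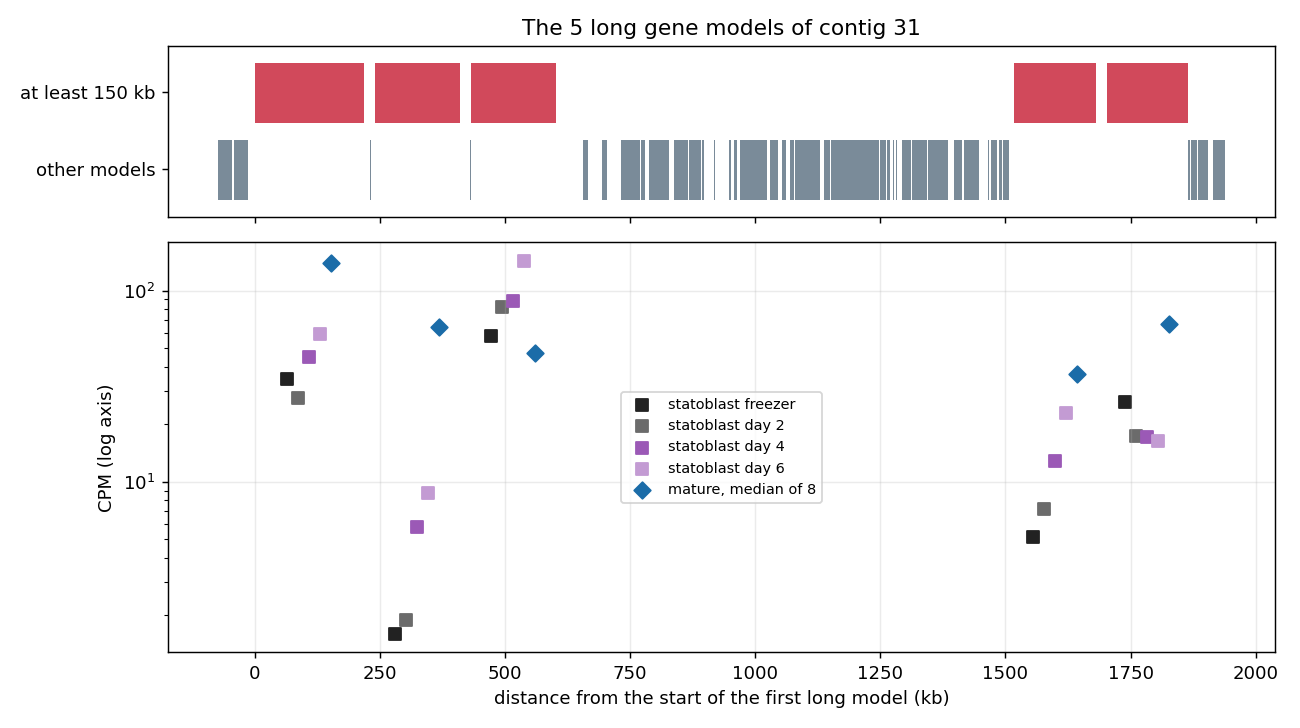
The 5 long models of contig 31 (red) and the other models of the window (grey) by distance in kb from the start of the first, above their CPM (log axis) in the 4 statoblast stages and as the median of the 8 mature libraries. The third model from the left is the one whose stages lie above the mature median; the other 4 lie below theirs at every stage.

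Some of the long models ended within a few bases of another model. Each is described by its own levels over the libraries. A model of 70148 bases ended 81 bases before the contig 8 model g5308. It had 0 counts in all 4 stages, whereas g5308 had counts at day 4 and day 6. On library totals its edge libraries, at 20.6 and 27.1 CPM, lay below its central ones, at 29.4 and 33.7 CPM, whereas those of g5308 lay above. On that scale 48.2% of all models tested lay lower at the edge without overlap. The TMM factors were 0.756 and 0.832 for the edge libraries and 1.14 and 0.957 for the central ones. Scaled by them, the zones of this neighbour overlapped, whereas those of g5308 did not. A model of 112210 bases began 4 bases after the 187.5 kb model on contig 161. It held 53.3 to 66.1 CPM in the stages and 13.4 to 29.9 CPM in mature libraries, so it was higher in the stages, whereas the 187.5 kb model was lower there. A model of 1100 bases ended 15 bases before g31945. It was lower in the stages, at 0 to 0.178 CPM, than in mature libraries, at 3.95 to 9.94 CPM. Whether such neighbours are parts of one gene was not tested.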

How the data were processed

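The labels' protocols give a directional poly-A kit and paired-end or single-end sequencing. The submitters' processing notes list HISAT2 2.1.0 and featureCounts 1.5.1. Strand setting, assembly and annotation were not given in the sources used here. Each gene model has an expected count per library as the authors deposited it, without normalization, beside its contig, first and last base. Reads of overlapping models on opposite strands may therefore not be separated.

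Rounding to whole counts moved no library total by more than 0.00408%. CPM values use library totals. Tests used edgeR 4.0.16 in R 4.3.3 (filterByExpr, TMM, quasi-likelihood) over all models, with Benjamini-Hochberg adjustment and a threshold of 0.05. The SE is the absolute log2 fold change divided by the square root of F. Zones were fitted as 4 group means over 8 libraries, statoblast against mature as 2 groups over 12, and the slope over the 4 stages. DESeq2 1.42.0 served as an alternative. The fits were also run on simulated counts with a set spread and independent libraries. Their outcome is not given here and does not show how the fits perform on these libraries. Intervals for single libraries are exact Poisson or conditional binomial at 95%, and the floor is 3 counts.

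Replicates of a group differed by more than sampling noise (chi-square per model 38.8 to 67.1). The members, length classes and tests were chosen with earlier results of these data known, and the class of 100000 to under 150000 bases, the neighbours within 500 bases and contig 31 after their values were seen. Identifiers were printed for at most 2 rises and 2 falls per comparison. They had to be called, to average 1 or more in log2 CPM, and to show no overlap of groups in CPM, or a monotone course in the case of the trend. The difference between dissections had no such condition. Later mentions of those models, and g10755 in that difference, were added after the values were seen. Python 3.11.15 with pandas 2.3.3, numpy 2.4.6, scipy 1.17.1 and matplotlib 3.10.9 gave library values and figures.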

Additional observations from a re-analysis of the deposited data

Results flagged for a closer look

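Of 32 sets of values examined (each of the 15 models and their sum, in the 8 mature and in the 4 statoblast libraries), 3 had a library far from the others, where chance gives about 1 in 20. All 3 were in the statoblast series, whose libraries are different stages. The contig 2 model of 156.7 kb was at 111.3 CPM in the freezer library and at 31.5 to 40.5 CPM in the other stages. The contig 31 model of 161.4 kb was at 26.2 CPM in the freezer library and at 16.3 to 17.3 CPM in the others. The contig 3 model of 167.4 kb was at 3.97 CPM at day 6 and at 0 to 0.633 CPM in the others.

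The contig 8 model of 210.5 kb differed between the dissections: its edge-to-centre change exceeded its end-to-middle change by 2.16 on the log2 scale.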

How the results depend on the processing

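Each test was repeated with other settings. Against mature colonies, 13 models were lower with the DESeq2 Wald test, with library totals alone, without the filter, with thinned libraries, with 8 group means and in each of 12 fits that left out 1 library. The count was 11 with day 6 alone. The number higher was 2 with library totals alone and with 8 group means, and 1 to 2 over the fits without 1 library. The length limit moved the counts most: at 100000 bases 52 were lower and 16 higher of 83 models, and at 200000 bases 2 and 0 of 2. At these limits the edge comparison had 13 and 0 lower calls and 4 and 1 higher, and the trend 5 and 0 higher and 1 and 0 lower. The difference had 2 higher at 100000 bases. Without the filter the trend had 5 higher and 1 lower, against 998 and 293 over all 21059 models tested.

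Leaving out 1 library gave 0 to 2 lower at the edge, 0 to 2 lower at the ends, 0 to 3 higher and 0 to 1 lower for the difference, and 0 to 2 higher and 0 to 1 lower for the trend. The difference had 1 lower with the DESeq2 Wald test, with library totals alone and without the filter. Why these moved was not tested, beyond fewer or more models or libraries entering.

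Over all models, calls at the ends became 264 higher and 36 lower with DESeq2, 474 and 207 without the filter, and 742 and 337 without end replicate 3, from 59 and 3. With totals alone the edge calls became 908 higher and 3882 lower, from 2311 and 1979. Without edge replicate 2 they became 458 and 384. The trend had 4 and 0 calls without the freezer library, from 587 and 412.

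The 2 zones of each dissection share only 1 replicate number, and nothing says that a number marks a shared colony. Deviations of same-numbered libraries had correlations of -0.16 to 0.38. With 2 libraries a group, differently numbered libraries gave correlations of the same sizes, so this check cannot show pairing. With the replicate number as a block, the counts for the 15 models were again 1 higher and 2 lower at the edge, 0 at the ends and 1 higher for the difference, and calls over all models at the ends were 95 higher and 8 lower.

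For 36 model-by-zone values never called, 40 of 457 alternative values changed sign. The statoblast floor of 3 counts, 0.384 to 0.633 CPM, limits what can be said of the models near 0.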
